A study of Mus musculus with 20 samples.

Results

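At embryonic day 11 (E11), the 2 habenula plates held 654 kept wells. Of these, 265 carried counts of the transcription factor genes Onecut2 or Onecut3 and no count of Tfap2a or Tfap2b. These wells, called the members here, were selected on those 4 genes: at least 3 counts of Onecut2 plus Onecut3, and 0 counts of Tfap2a plus Tfap2b. Plate 1 held 117 of them among 309 kept wells and plate 2 held 148 among 345, out of 4811 kept wells on the 20 plates of the series. A kept well had at least 1000 counts outside spike-in and mitochondrial rows, at least 500 genes, and at most 20% mitochondrial counts. Cel-seq2, which counts transcripts per well by a cell barcode and a molecular identifier, was the assay. Both plates came from E11 habenula of the Brn3a-tauLacZ mouse line, a reporter line named for Brn3a, the older name of Pou4f1, and the E12 plate used below came from the same line. Members and comparison wells sat on the same plates and so shared line, stage and preparation. No source used here states the number of embryos, a cell sort or the genotype at the reporter locus. The plate was the replicate (n = 2 plates), and nothing says that the plates came from separate litters. With the plate as a block, p-values set the difference between classes against its variation between these 2 plates, beside counting error. The fit pools that variation over genes, so a gene's p-value does not measure how well the 2 plates agreed for that gene.

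The habenula is a pair of small nuclei in the roof of the diencephalon that passes signals from the forebrain to midbrain centres of reward and aversion. Onecut factors are cut-homeodomain proteins that are switched on in many neurons soon after they leave the cell cycle. AP-2 proteins, encoded by the Tfap2 genes, are known for neural crest, ectoderm and some neurons of the midbrain roof and retina. Pou4f1 is a POU-domain factor of habenula and sensory neurons, and Nr4a2 is a nuclear receptor of several neuron types, the habenula among them.

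Onecut expression did not set the members apart from the rest of the plates. With the Tfap2 condition left aside, 288 of 309 kept wells of plate 1 (93.2%) and 318 of 345 of plate 2 (92.2%) had 3 or more Onecut counts. Among the wells that were not members, 89.1% and 86.3% reached that threshold as well. All 70 wells of plate 1 and all 79 of plate 2 with 10 or more Tfap2 counts also had at least 3 Onecut counts. For most wells membership was decided by the lack of a Tfap2 count, and the members are described below as Onecut-positive, Tfap2-negative wells.

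**Figure D1:**
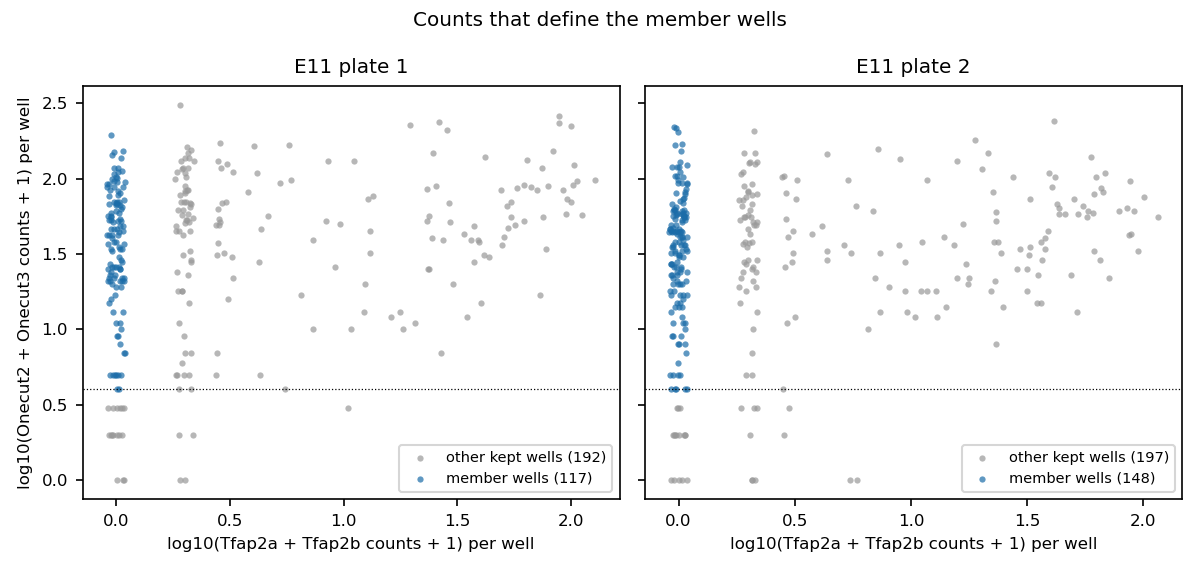
Each point is a kept E11 well, with its summed Tfap2a and Tfap2b counts (x axis, with a small sideways jitter) against its summed Onecut2 and Onecut3 counts (y axis), both as log10 of the count plus 1. The dotted line marks 3 Onecut counts. The 117 and 148 members fill the column at 0 Tfap2 counts above the line. The wells with Tfap2 counts overlap them in Onecut counts and reach lower and higher values.

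Of the label genes Onecut2, Onecut3, Sncg, Crabp1 and S100a10, only Sncg was higher in the members than in the other wells on both plates. Their values are a description with no test, since the rule or the label chose them. Levels are given in CPM, a gene's counts in the summed wells scaled by the total of all counts other than spike-ins. Onecut2 stood at 2647 CPM in the members of plate 1 and 3058 in its other wells, and at 2903 and 2986 on plate 2. Onecut3 was at 410 and 429 CPM on plate 1 and at 408 and 339 on plate 2. Every member had an Onecut2 count, and 99 of 117 and 121 of 148 had an Onecut3 count. Neither factor was higher in the members on both plates. Sncg, which encodes the synuclein of peripheral and some central neurons, was at 510 and 418 CPM on plate 1 and at 494 and 399 on plate 2, higher in the members each time. Crabp1, a cytoplasmic retinoic acid binding protein, was lower in the members on both plates, at 3988 against 4805 CPM and at 2388 against 3667. S100a10, the annexin A2 partner, was also lower, at 305 against 365 and 333 against 349 CPM. The plates themselves differed in Crabp1 by more than the classes did on plate 1.

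**Figure D2:**
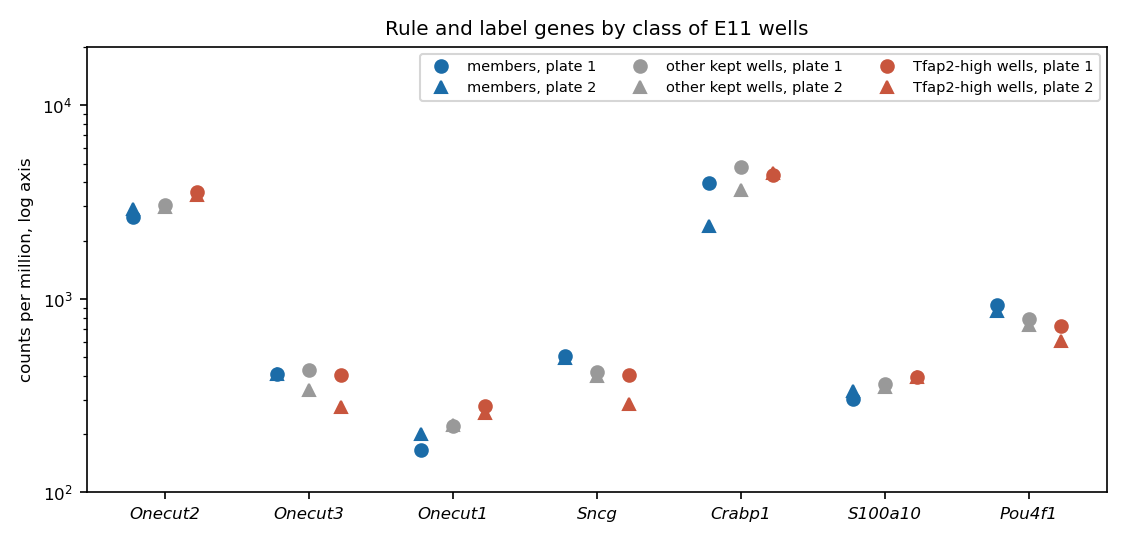
Summed CPM of 7 genes (log axis) in members (blue), other kept wells (grey) and wells with at least 10 Tfap2 counts (red), with plate 1 as circles and plate 2 as triangles. The Onecut2 points of the 3 classes lie between 2647 and 3584, the Sncg points of the members (510 and 494) lie above those of the other classes, and their Crabp1 points lie below those of the other wells of the same plate.

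Without a Tfap2 count, 16 wells on each plate had 0 to 2 Onecut counts and so fell just outside. Their summed progenitor list (10 genes) stood at 4649 and 3914 CPM, and 62.5% and 25% of them had a count of the proliferation genes Mki67 or Top2a. The 8 and 9 members just inside, with 3 or 4 Onecut counts, had progenitor levels of 2794 and 4429 CPM, below the outside wells on plate 1 and above them on plate 2. With 5 to 9 Onecut counts the 6 and 9 members were at 5214 and 2558 CPM. In the 103 and 130 members with 10 or more Onecut counts the progenitor list was at 609 and 681 CPM, and 8.74% and 1.54% had a Mki67 or Top2a count. Those wells make up 88% and 87.8% of the members.

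Of the other wells, 66 on plate 1 and 63 on plate 2 had exactly 1 Tfap2 count. Nr4a2 stood at 150 CPM in the members of plate 1 and at 99 in Onecut-positive wells with 1 Tfap2 count, then at 71.8, 19.5 and 13.2 with 2, with 3 to 9 and with 10 or more. On plate 2 the same 5 levels were 181, 192, 149, 113 and 13.9 CPM. Shox2, a homeobox factor, was at 126, 156, 168, 149 and 596 CPM on plate 1 and 188, 160, 46.7, 264 and 617 on plate 2. Shox2 was highest in the wells with 10 or more Tfap2 counts on both plates. For Nr4a2 the wells with 10 or more counts were lowest, but on plate 1 those with 3 to 9 counts were close to them. Among wells that failed the filter, a Tfap2 count was present in 4 of 75 on plate 1 (5.33%) and in 8 of 38 on plate 2 (21.1%). An Onecut count was present in 4 (5.33%) and 12 (31.6%) of them, at median depths of 34 and 145 counts. Such wells can hold poor cells with transcripts of their own, so these shares are no rate of stray counts. How far stray Tfap2 counts moved wells out of the members was not tested.

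**Figure D3:**
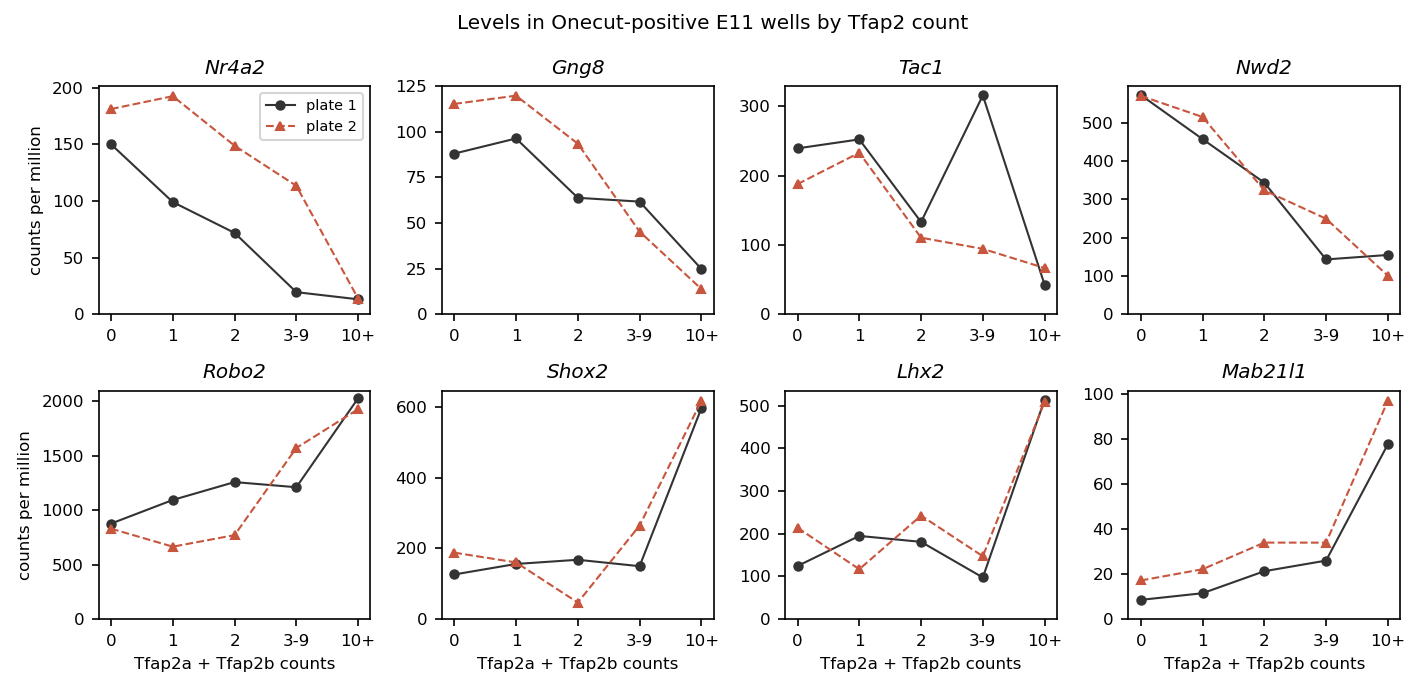
Summed CPM of 8 genes in E11 wells with at least 3 Onecut counts, binned by their Tfap2a plus Tfap2b counts (x axis: 0 are the members), with plate 1 as a solid and plate 2 as a dashed line. The bins hold 117, 62, 20, 19 and 70 wells on plate 1 and 148, 56, 14, 21 and 79 on plate 2. Genes of the upper row are lowest in the last bin apart from Nwd2 on plate 1, and genes of the lower row are highest there.

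Members and other wells were close in median depth when each class was pooled, but depth differed with the Tfap2 count. The median was 14161 counts per well in the members of plate 1 and 15486 in its other wells, and 11450 and 11522 on plate 2. Unspliced transcripts took 22.4% and 22.3% of the counts on plate 1 and 20.6% and 20.9% on plate 2, and median mitochondrial shares lay between 4.82% and 5.25%. Onecut-positive wells with 1 Tfap2 count had median depths of 16466 counts on plate 1 and 15886 on plate 2. With 2 Tfap2 counts the medians were 16277 and 16934, and with 3 to 9 they were 11197 and 9045. Members were thus shallower than the wells just outside the Tfap2 limit, and their shares depended on depth, as given below. The members' sums held 1875030 and 2100660 counts. The plates shared 383 well barcodes, of which 40 marked a member on both. Markers of other cell types were scarce: endothelial genes summed to 5.87 and 15.7 CPM in the members, with Pecam1, Cldn5 and Kdr at 0 on plate 1. Erythroid genes summed to 48.6 and 0.476 CPM, microglial genes to 67.9 and 5.24, and neural crest and Schwann genes to 39 and 9.52 with Sox10, Foxd3 and Erbb3 at 0 on plate 1. Mesenchymal genes summed to 9.6 and 4.28 CPM in the members and to 166 and 6.44 in the other wells, 4 of which held 10 or more such counts on plate 1. Their part in the results was not tested beyond leaving such wells out, which gave 212 calls in the first comparison below in place of 226.

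Most members passed as neurons by their markers. With a filter of at least 10 counts over Tubb3, Stmn2, Elavl3 and Dcx and no count of Mki67 or Top2a, 103 of 117 (88%) and 139 of 148 (93.9%) passed, against 80.7% and 90.9% of the other wells. Wells with 10 or more Tfap2 counts passed at 94.3% and 96.2%, above the members on both plates. Slc17a6, a vesicular glutamate transporter, stood at 160 and 163 CPM and had a count in 88 and 109 members. Gad2, an enzyme of GABA synthesis, had no count in 117 or 148 members. With a limit of 3 wells put on a count of 0, this allows shares of wells with a count of up to 2.56% and 2.03%. A few members carried other GABA genes. Gad1 had a count in 3 and 2 members, with a highest value of 19 counts in a well of plate 1, and Slc32a1 in 2 and 3. Hox genes, which mark hindbrain and spinal cord, were at 0 for 12 of 12 listed genes on plate 1 and 11 of 12 on plate 2. Isl1, a LIM factor of sensory and motor neurons, had a count in 1 member on each plate. The habenula list of 11 genes summed to 2400 and 2431 CPM in the members, and Gpr151, a receptor of mature habenula neurons, was at 0 on plate 1. The thalamus list of 7 genes summed to 5459 and 5811 CPM in the members and to 5434 and 6065 in the other wells. In the members Tcf7l2 alone gave 3869 and 4067 CPM of that list.

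The first comparison asked which genes differed between the members and the other kept wells of their plates. Counts were summed per plate and class, and edgeR's quasi-likelihood test with the plate as a block and Benjamini-Hochberg adjustment called 97 genes higher and 129 lower in the members among 12320 tested (0.787% and 1.05%). The 4 rule genes stayed out of the fit. The fit had 1 residual degree of freedom. Without the plate block 59 genes were called, with DESeq2 43, and with the E12 plate in place of plate 1 88. Leaving out 2 wells of plate 2 that held more than 3 times the plate's median counts, both among the other wells, gave 135. An Onecut threshold of 5 gave 411, no filter on low counts 450, and the rule without its Tfap2 condition 2014. Calls of single genes named from this comparison were lost too: 28 of 43 without the plate block, 31 of 42 with DESeq2, and 30 and 20 of 42 with the E12 plate in place of plate 1 or plate 2. Adcy8, Chrm3, Nwd2, Dlg2, Gm21949, Meis2, Mab21l1, Shox2, Robo2 and Nefm kept their calls both without the block and with DESeq2, and each other call named below from this comparison was lost in at least 1 of those fits. The median change was 0.60 among the higher genes, and the lower genes fell by a median of 0.82 on the log2 scale.

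Of 9 genes of the habenula list tested, 4 were higher in the members and none lower (Nr4a2, Gng8, Pou4f1 and Tac1), and the list's median log2 fold change was 0.31, beside 0.00 for all genes tested. Nr4a2 was at 150 CPM in the members and 52 in the other wells of plate 1, and at 181 and 106 on plate 2. The lower member level lay above the higher level of the other wells, and the fitted log2 fold change was 1.11 ± 0.14 (SE; edgeR adjusted p = 0.00073). Gng8, a G protein gamma subunit of habenula and olfactory neurons, was at 88 and 57 CPM on plate 1 and at 115 and 62 on plate 2 (0.78 ± 0.12; edgeR adjusted p = 0.0027). Tac1, the precursor of substance P and neurokinin A, was at 239 and 148 CPM and at 188 and 129 (0.62 ± 0.09; edgeR adjusted p = 0.0013). Pou4f1 was at 930 and 786 CPM and at 863 and 731 (0.24 ± 0.05; edgeR adjusted p = 0.026). Onecut-positive wells with 1 Tfap2 count, which belong to the other wells, stood above the members on both plates for Gng8 (96.3 and 120 CPM) and Tac1 (252 and 233), and at 913 and 828 CPM for Pou4f1. The members were not tested against these wells alone. None of the 4 passed the threshold without the plate block or with DESeq2, at changes between 0.24 and 1.15, and with the E12 plate in place of an E11 plate only Nr4a2 passed.

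By fitted change the 12 largest at 20 CPM or more were Cbln4, Chl1, Adcy8, Ssc5d, Gria1, Gm45697, Nr4a2, Chrm3, Nwd2, Dlg2, Kcnd2 and Gm21949, from 1.37 to 0.96 on the log2 scale. Cbln4, a secreted synaptic organiser of the cerebellin family, was at 22.9 and 28.6 CPM in the members and at 9.1 and 10.7 in the other wells. Adcy8, a calcium-stimulated adenylyl cyclase, was at 95 and 112 against 42.7 and 41.2 CPM. Chrm3, a muscarinic acetylcholine receptor, was at 102 and 114 against 52.4 and 50.1 CPM. Nwd2 was at 572 and 570 against 273 and 277 CPM, close to the same level on both plates. Kcnd2, a pore subunit of A-type potassium channels, was at 246 and 263 against 98.5 and 165 CPM, and Dlg2, a scaffold of the postsynaptic density, at 402 and 352 against 188 and 187. In Onecut-positive wells with 1 Tfap2 count Kcnd2 was at 123 and 296 CPM, below the members on plate 1 and above them on plate 2. Cbln4, Adcy8, Chrm3, Nwd2 and Dlg2 were below the members there on both plates. Adcy8 and Nwd2 passed in this comparison under every alternative that was run. For Gria1, an AMPA receptor subunit, 1 well gave 36.6% of the members' counts on plate 1. Gm21949 shares its strand and position with Schip1 and Iqcj, so its counts cannot be assigned to it alone.

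The 8 largest falls were Gm49394, Igf2, Meis2, Arpp21, Hs3st3b1, Mab21l1, Gm30382 and Pax3, from -3.18 to -1.76 on the log2 scale. Igf2, an imprinted growth factor, and Gm49394 share 1 locus and the same counts, and on plate 1 a single well gave 39.6% of the other wells' Igf2 counts. Both fell below the count filter once wells with 10 or more counts of another cell type's markers were left out, so this pair rests on few wells. Meis2, a TALE homeodomain factor, was at 3.2 and 3.81 CPM in the members and 22.4 and 24.7 in the other wells. Mab21l1, a gene of eye and midbrain development, was at 8.53 and 17.1 against 40.3 and 58.7 CPM. Hs3st3b1, a heparan sulfate sulfotransferase, was at 1.07 and 8.1 against 26.4 and 17.9 CPM. Pax3, a paired-box factor of the dorsal neural tube, was at 7.47 and 5.24 against 24 and 19.3 CPM, with 35.5% of the other wells' counts of plate 1 in 1 well.

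The gene lists were drawn up with earlier results of these data known. Of 10 midbrain and pretectum genes tested, 3 were lower (Barhl2, Meis2 and Pax3) and none higher. Among 10 LIM factors 2 were higher (Lhx9 and Lmo3) and Lhx2 was lower. Of 7 thalamus genes tested 1 was higher and 1 lower, again Lhx9 and Lhx2, with a list median of 0.076. Lhx2 was at 124 CPM in the members and 299 in the other wells of plate 1, and at 214 and 311 on plate 2. Its change was -0.86 ± 0.12 (edgeR adjusted p = 0.0016), a call lost without the plate block and with DESeq2. In Onecut-positive wells with 1 Tfap2 count Lhx2 was at 195 and 117 CPM, above the members on plate 1 and below them on plate 2. Of 10 sensory neuron genes tested 2 were lower, the homeobox factors Shox2 and Tlx3, and 1 was higher, Pou4f1, which stands in the habenula list too; the list's median was -0.43. Shox2 was at 126 and 188 against 324 and 367 CPM (-1.15 ± 0.09; edgeR adjusted p = 1.7e-05). Tlx3 had 3 counts in the members of plate 1 and 0 on plate 2, against 51 and 28 in the other wells, too few for its fitted change to be read. Slc17a6 was lower at -0.38 ± 0.08 (edgeR adjusted p = 0.032). Of 10 progenitor genes only Hes5, a Notch target, was called (-0.68). Its direction turned with the threshold of the rule: with 1 Onecut count in place of 3 its change was 0.34 (edgeR adjusted p = 0.48). Of 13 neurogenic genes only the cell cycle inhibitor Cdkn1c was lower, and of 12 cell cycle genes none was called. No call was made by edgeR among 10 pan-neuronal, 20 growth cone and 15 synaptic vesicle genes, whose median log2 changes were -0.03, -0.02 and 0.10.

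Of 37 axon guidance and adhesion genes tested, 5 were higher (Chl1, Efnb2, Ephb1, Robo1 and Slit2) and 6 lower (Cntn2, L1cam, Nrcam, Plxna4, Robo2 and Slit1), with a list median of -0.16. Robo1 and Robo2 are receptors for the Slit ligands, which turn growing axons away from the midline. Robo1 was at 4524 CPM in the members and 3458 in the other wells of plate 1 and at 3946 and 3158 on plate 2, which gave 0.36 ± 0.04 on the log2 scale (edgeR, adjusted p = 0.00018). Robo2 was at 877 against 1432 CPM and at 830 against 1252 (-0.65 ± 0.05; edgeR adjusted p = 1.5e-05). The ligands divided too: Slit2 was at 738 and 566 against 572 and 496 CPM (0.28 ± 0.06), and Slit1 at 67.8 and 57.1 against 109 and 101 (-0.75 ± 0.11). Slit1 lost its call with DESeq2 and Slit2 with DESeq2 and without the plate block. Onecut-positive wells with 1 Tfap2 count were at 4389 and 3789 CPM for Robo1 and at 1094 and 665 for Robo2. For Slit2 they were at 736 and 644 CPM and for Slit1 at 69.8 and 54.3. There Robo1 was below the members on both plates, while Robo2 was above them on plate 1 and below them on plate 2. The members were not tested against those wells alone for these genes. Plxna4, a semaphorin receptor subunit, was at 26.7 and 29.5 against 46.4 and 84.9 CPM. The adhesion molecules Cntn2, L1cam and Nrcam had log2 fold changes of -0.43, -0.35 and -0.33, while Chl1, of the same family as L1cam and Nrcam, was higher by 1.32. Without the plate block Robo1 lost its call at an unchanged 0.36, and with the E12 plate in place of plate 1 Robo1 and Robo2 lost theirs at 0.25 and -0.44. Nefm, the medium neurofilament, was lower at 614 and 545 against 802 and 860 CPM.

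The second comparison kept only wells that passed the neuron filter. Restricted to the 103 and 139 member neurons and the 155 and 179 other neurons, and without the 6 genes of that filter, edgeR called 174 genes higher and 250 lower of 11877 tested (1.47% and 2.1%). The fit without the plate block called 105, DESeq2 34, and the fit with the E12 plate in place of plate 2 17. Without the 2 large wells of plate 2 the count was 216, with an Onecut threshold of 5 it was 209, with wells thinned to 4000 counts 186, and with the E12 plate added or in place of plate 1 168 and 226. The leading genes were Cbln4, Adcy8, Ssc5d, Gm45697 and Nr4a2 on the higher side, and Arpp21, Hs3st3b1, Mab21l1, Gm30382 and Hs3st5 on the lower. Nr4a2 had a log2 fold change of 1.18 ± 0.11 among neurons, and Mab21l1 of -2.07 ± 0.22. Onecut1, the third family member, which the rule did not use, was lower in member neurons at -0.29 ± 0.09 (edgeR adjusted p = 0.039). Of these named genes Nr4a2 and Hs3st5 kept their calls without the plate block, with DESeq2 and with the E12 plate in place of either E11 plate. Mab21l1 lost its call with the E12 plate in place of plate 2 (edgeR adjusted p = 0.10), as did 8 of the 11 named genes, and with DESeq2 5 of 9 were lost. Onecut1 lost its call in all of these fits, and on the E12 plate alone its log2 ratio was 0.044.

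Set against the wells with 10 or more Tfap2 counts, the members differed more widely. That class was chosen after the counts were seen, because the planned class of wells with Tfap2 counts and no Onecut count held 0 wells on plate 1 and 2 on plate 2. Between 117 and 148 members and 70 and 79 Tfap2-high wells, edgeR called 524 genes higher and 548 lower of 11053 tested (4.74% and 4.96%), and 682 in all without the plate block. The Tfap2-high wells had medians of 16326 and 12306 counts. Thinning every well to 4000 counts left 432 calls, DESeq2 made 157, and fits with the E12 plate in place of plate 1 or plate 2 made 283 and 411.

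Of the 9 tested habenula genes 6 were higher in the members in this comparison and none lower, with a list median of 0.53. Of 6 tested thalamus genes 2 were higher and 3 lower, with a list median of 0.0067. Nr4a2 was at 13.2 and 13.9 CPM in Tfap2-high wells, and its change was 3.57 ± 0.20 on the log2 scale (edgeR, adjusted p = 9.0e-66). Gng8 was at 24.8 and 13.9 CPM there (2.33 ± 0.21), Tac1 at 42.7 and 66.8 (1.95 ± 0.14) and Robo3, a divergent Robo receptor of commissural axons, at 6.21 and 7.79 (1.72). Irx2 and Pou4f1 were higher by 0.53 and 0.40. Pou4f1 was thus present in both classes, at 728 and 608 CPM in the Tfap2-high wells. The largest falls were those of Tlx3, Tuft1, Arpp21, Hs3st3b1 and Meis2 (-3.27 ± 0.40). Tlx3 rests on the 3 counts given above, and Tuft1 on 0 and 6 counts in the members against 31 and 20. Shox2 at 596 and 617 CPM, Lhx2 at 514 and 509 and Barhl2 at 126 and 122 were all high in the Tfap2-high wells, with log2 fold changes of -1.99, -1.65 and -1.94. Of 8 midbrain and pretectum genes tested here 2 were lower (Barhl2 and Meis2) and 2 higher, Barhl1 by 1.52 and Tal2 by 1.04. Barhl1 was at 28.9 against 3.88 CPM on plate 1 but at 9.05 against 8.66 on plate 2. Tal2 was at 30.5 against 18.6 and at 16.7 against 4.33 CPM. Both were concentrated in group 3 of the members, described below. Barhl1 was at 169 and 60.7 CPM there against 0.641 and 0.554 in the remaining members, and Tal2 at 176 and 115 against 1.28 and 0.554. Onecut1, which the rule did not use, was lower in the members as well (-0.59). The family member Tfap2d was called at -0.45, but its change was 0.028 (edgeR adjusted p = 0.99) with the E12 plate in place of plate 2, and the call was lost without the plate block and with DESeq2. Of 24 genes named from this comparison 9 lost their call with DESeq2, among them Cbln4, Tuft1, Hs3st3b1, Pou4f1, Irx2, Robo3 and Onecut1. Meis2, Robo3 and Onecut1 lost theirs with the E12 plate in place of either E11 plate.

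Robo1 and Robo2 parted further here, with log2 fold changes of 0.54 ± 0.04 and -1.24 ± 0.06. Of 37 axon guidance and adhesion genes 10 were higher and 10 lower. Of 10 pan-neuronal genes 7 were lower in the members, from -0.19 to -0.39, and Syt1 was higher. Of 11 tested cell cycle genes 8 were higher, among them Cenpf at 3.95 and Top2a at 3.73, along with 5 of 10 progenitor genes. These 2 lists were high in the few members near the Onecut threshold. In members with 3 or 4 Onecut counts the 12 cell cycle genes summed to 1459 and 2697 CPM, and with 5 to 9 to 3675 and 240. In the 103 and 130 members with 10 or more the sums were 56 and 79.6 CPM, and in the Tfap2-high wells 90.8 and 58.9. For the progenitor list the Tfap2-high wells were at 670 and 743 CPM, beside the 609 and 681 given above for members with 10 or more Onecut counts. Vim, which was not called, gave 566 and 592 CPM of these Tfap2-high sums. Pcna, Mcm2 and Mcm5, also not called, were at 38.8, 19.4 and 13.2 CPM in the Tfap2-high wells of plate 1. On plate 2 they were at 18.2, 18.2 and 7.79 CPM. With such genes in the sums, the sums cannot show in which members the called genes were high. For Top2a 1 well held 49.3% of the members' counts on plate 1, and the gene stood at 35.8 and 32.5 CPM in the members against 2.33 and 2.6. Lhx1, higher by 4.18, was at 51.3 and 13.3 CPM against 0 and 3.46, so its fitted change is no measure of size. It had counts in 7 of 117 and 6 of 148 members, and on plate 2 a single well gave 53.6% of them. With the E12 plate in place of plate 1 its change was -0.0071. With neuron wells only in both classes 915 genes were called in all.

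**Figure D4:**
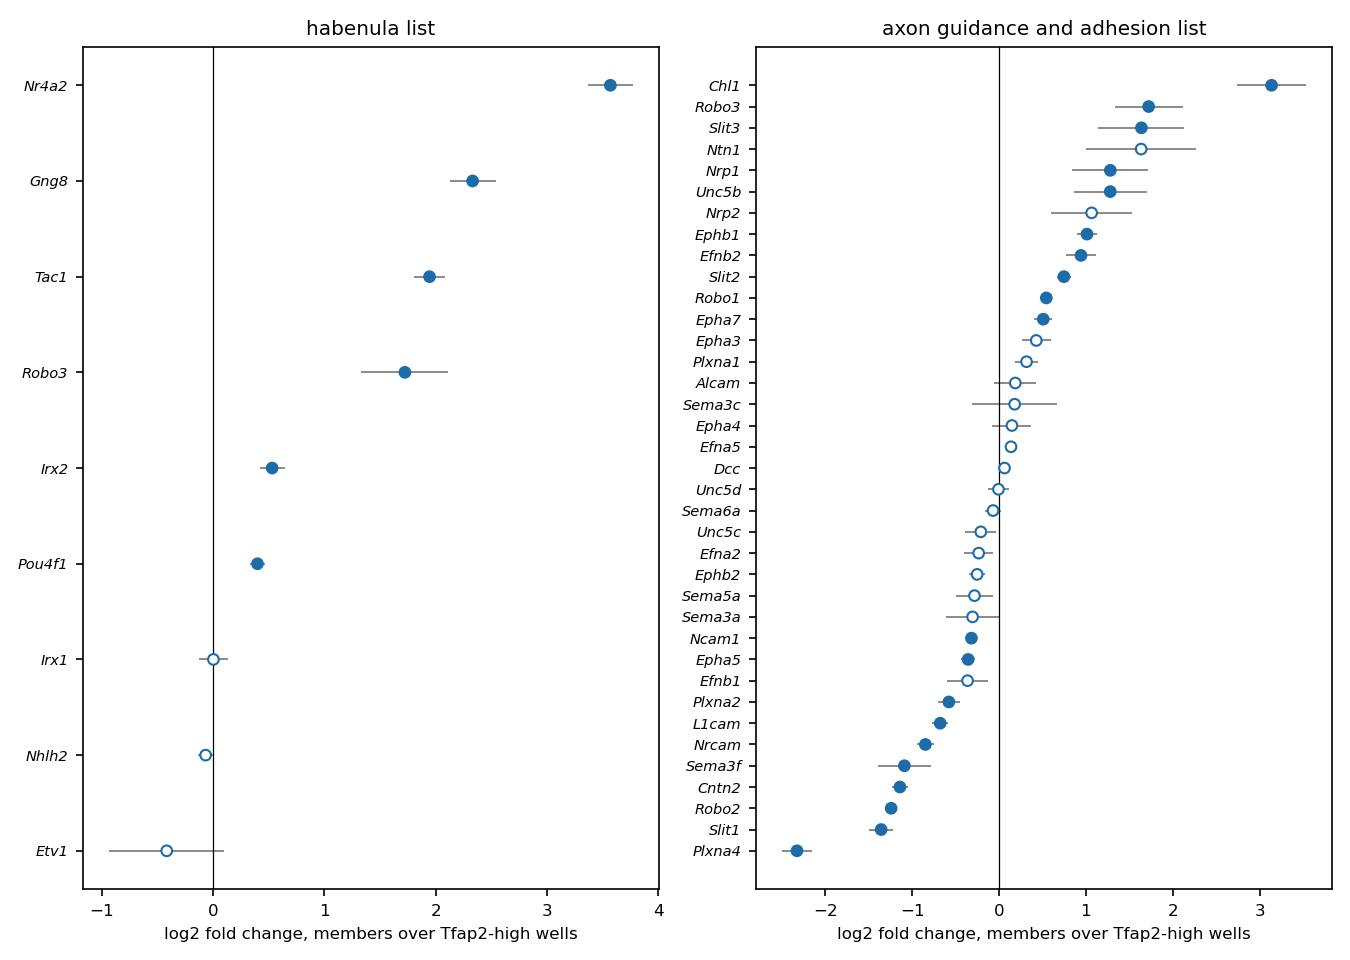
Fitted log2 fold change of the members over wells with at least 10 Tfap2 counts, for the tested genes of the habenula list (left) and of the axon guidance and adhesion list (right). Bars are 1 standard error derived from the change and edgeR's F statistic (1 fit over 2 plates). Filled points passed an adjusted p of 0.05. Nr4a2 stands highest on the left at 3.57, and on the right Robo1 (0.54) and Robo2 (-1.24) lie on opposite sides of 0.

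Sequences around the start sites of 3 genes are shown because they belong to the rule or to the contrast with Tfap2-high wells: Tfap2b itself, Nr4a2 as a gene higher in the members, and Lhx2 as a factor lower in them. Each runs from 250 bases before to 50 bases after the start site of RefSeq on GRCm38.p6, 5′ to 3′ in the direction of the gene. Tfap2b lies on the plus strand at chr1:19211804-19212103, and its capitals mark ATCAAT. The letters ATCAAT and ATCGAT, cores bound by Onecut proteins, were searched on both strands. Nr4a2 (minus strand, chr2:57123954-57124253) and Lhx2 (plus strand, chr2:38351058-38351357) carry capitals at GCCNNNGGC, the palindrome bound by AP-2 proteins, which reads the same on both strands in its fixed letters.
Tfap2b: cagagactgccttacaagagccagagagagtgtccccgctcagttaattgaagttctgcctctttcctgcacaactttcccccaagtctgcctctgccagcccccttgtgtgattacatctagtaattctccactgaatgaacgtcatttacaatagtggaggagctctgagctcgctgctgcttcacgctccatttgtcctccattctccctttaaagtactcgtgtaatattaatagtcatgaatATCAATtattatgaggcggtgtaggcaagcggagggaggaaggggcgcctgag
Nr4a2: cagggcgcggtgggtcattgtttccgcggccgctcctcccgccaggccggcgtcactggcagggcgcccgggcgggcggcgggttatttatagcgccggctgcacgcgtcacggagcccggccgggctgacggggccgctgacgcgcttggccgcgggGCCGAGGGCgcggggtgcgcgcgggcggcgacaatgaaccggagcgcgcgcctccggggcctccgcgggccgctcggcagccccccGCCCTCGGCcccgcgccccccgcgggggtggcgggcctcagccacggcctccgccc
Lhx2: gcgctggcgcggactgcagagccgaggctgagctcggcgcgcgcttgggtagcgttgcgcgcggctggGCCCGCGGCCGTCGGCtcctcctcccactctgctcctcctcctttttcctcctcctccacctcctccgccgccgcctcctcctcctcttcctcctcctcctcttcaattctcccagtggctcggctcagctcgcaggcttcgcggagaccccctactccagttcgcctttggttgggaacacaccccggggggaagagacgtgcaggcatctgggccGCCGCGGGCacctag
The Onecut letters begin 3 bases before the Tfap2b start site. The AP-2 letters begin 92 and 6 bases before that of Nr4a2 and Lhx2 holds 3 matches, the first beginning 182 bases before its start site and the last 36 after it. Of all 32851 promoters listed by RefSeq, 8.4% held the Onecut letters and 16.6% the AP-2 letters. Among genes tested against Tfap2-high wells with a promoter in the table, 30.1% held the AP-2 letters, beside 28.8% of 378 higher and 35% of 403 lower genes. The Onecut letters were held by 5.72% of those tested, 9% of the higher and 8.19% of the lower genes. In the first comparison the Onecut letters were held by 5.8% of tested, 11.6% of 69 higher and 12.6% of 95 lower genes, and the AP-2 letters by 30%, 21.7% and 31.6%. A match is a string of letters in this window and no evidence of binding.

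The genes named most often here lie at these places on GRCm38 (GENCODE M21, whole gene spans): Nr4a2 at chr2:57106830-57124003 on the minus strand, Gng8 at chr7:16891786-16895436 on the plus strand and Tac1 at chr6:7554879-7565834 on the plus strand. Robo1 spans chr16:72308306-73046095 on the plus strand and Robo2 chr16:73891839-74411825 on the minus strand. Shox2 lies on the minus strand at chr3:66971727-66981771 and Lhx2 on the plus strand at chr2:38339281-38369733.

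Members were not uniform. Grouping the 265 wells by their variable genes, with the rule genes left out, gave 4 groups, each with wells of both plates. Each gene was first centred within its plate, so the mixing of plates is in part set by the method. The genes below led the grouping and are a description with no test. Group 1 held 84 wells (39 and 45) and was led by Trpm3, Necab2, Gng8, Nr4a2, Adcy8 and Nwd2. Its Nr4a2 stood at 282 and 296 CPM against 89.4 and 129 in the remaining members, its habenula list summed to 3148 and 3142 CPM, and its Crabp1 was at 1981 and 1356 against 4906 and 2852. Group 2 held 63 wells (27 and 36) and was led by Pappa2, Bhlhe23, Dab1, Rnf220 and Shox2. It was the group of high Crabp1, at 6861 and 4193 CPM, and of low Nr4a2, at 37.1 and 49.3, with Robo1 at 2681 and 3192 against 4948 and 4104.

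Group 3 held 48 wells (22 and 26) with a mixed set of leading genes. Tal2, St18, Lhx1 and Barhl1 encode transcription factors, and Ccnd2, Hes5, Cenpf and Top2a are progenitor and division genes. Its neuron list was the lowest of the 4, at 16604 and 14668 CPM, its Neurod1 was at 393 and 550 against 71.8 and 95.4, and its Sncg was at 25.5 and 53.9 CPM against 607 and 566. Group 4 held 70 wells (29 and 41) and was led by genes that included Grin2a, Cntn4, Grin3a and Slc24a2. It had the highest Onecut3, at 610 and 623 CPM, and Sncg at 811 and 668. Its median of 21009 counts per well was above the 13449 of all members. Groups 2 and 3 were shallower, at 9659 and 10779, and group 1 was at 13959. Depth thus moved with the groups, and its part was not tested. S100a10 was lowest in group 3, at 82.9 and 91 CPM against 349 and 372 in the remaining members. A finer grouping gave 7 groups. Grouped alone, the E12 members gave 4 groups, and the 10 leading genes of groups 1 to 4 shared 2, 1, 0 and 0 with their nearest E12 group.

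At E12 the contrast mostly had the same sign. On the single E12 plate 138 of 291 kept wells were members, and 79 of the 97 genes higher at E11 (81.4%) were higher there too, beside 46.8% of all tested genes. Of the 129 lower genes 108 (83.7%) were lower, beside 53.2%. With 1 plate there is no test at E12. Nr4a2 was at 408 CPM in its members, 253 in its other wells and 24.3 in its 29 Tfap2-high wells, and Robo2 at 533, 664 and 1452. Onecut2 was at 1416 CPM in the members and 1448 in the other wells. Gng8 no longer differed, at 132 CPM in both, and Crabp1 had come down to 213 CPM in the members and 394 in the other wells.

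The share of wells that met the rule was largest at E12 and lower on every plate from E15 on than on the E11 plates. Members made up 37.9% (exact 95% interval 32.4 to 43.5) and 42.9% (37.6 to 48.3) of kept wells at E11 and 47.4% (41.6 to 53.3) at E12. At E13 the plates gave 41.8% and 15.3%, at E15 29.3% and 21.9%, and at E18 25.5% and 25.5%. The 5 plates of E18 C57BL/6 mice, taken from the left, the right or both sides, gave 18 to 20.4%. They differ from the E11 plates in mouse line as well as stage. P4 gave 7.67% and 7.14%, P7 3.99% and 5.44%, and the adult plates 1 well each. The shares depended on the depth at which wells were read. With wells thinned to 4000 counts, and shallower wells left out, they were 54.1% and 57.2% at E11, 58.2% at E12, 30.2% and 12% at E13, 14.5% and 8.58% at E15, and 10% and 7.45% at E18. The thinned C57BL/6 plates gave 2.19 to 5.13%, and no thinned P4 or P7 plate had more than 1 member. Summed Onecut2 and Onecut3 fell from 3331 and 3319 CPM at E11 to 1664 at E12, 676 and 416 at E13 and 20.2 or less at P7. Tfap2a plus Tfap2b went from 702 and 690 CPM at E11 through 393 at E12 and 83.7 and 120 at E13 to 1.63 and 1.49 at E15. From E15 on, members are Onecut-positive wells in tissue with almost no Tfap2 counts, and whether they descend from the E11 members was not tested. In sums over wells, fewer cells of a type and less RNA per cell cannot be told apart. The intervals cover counting error only.

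**Figure D5:**
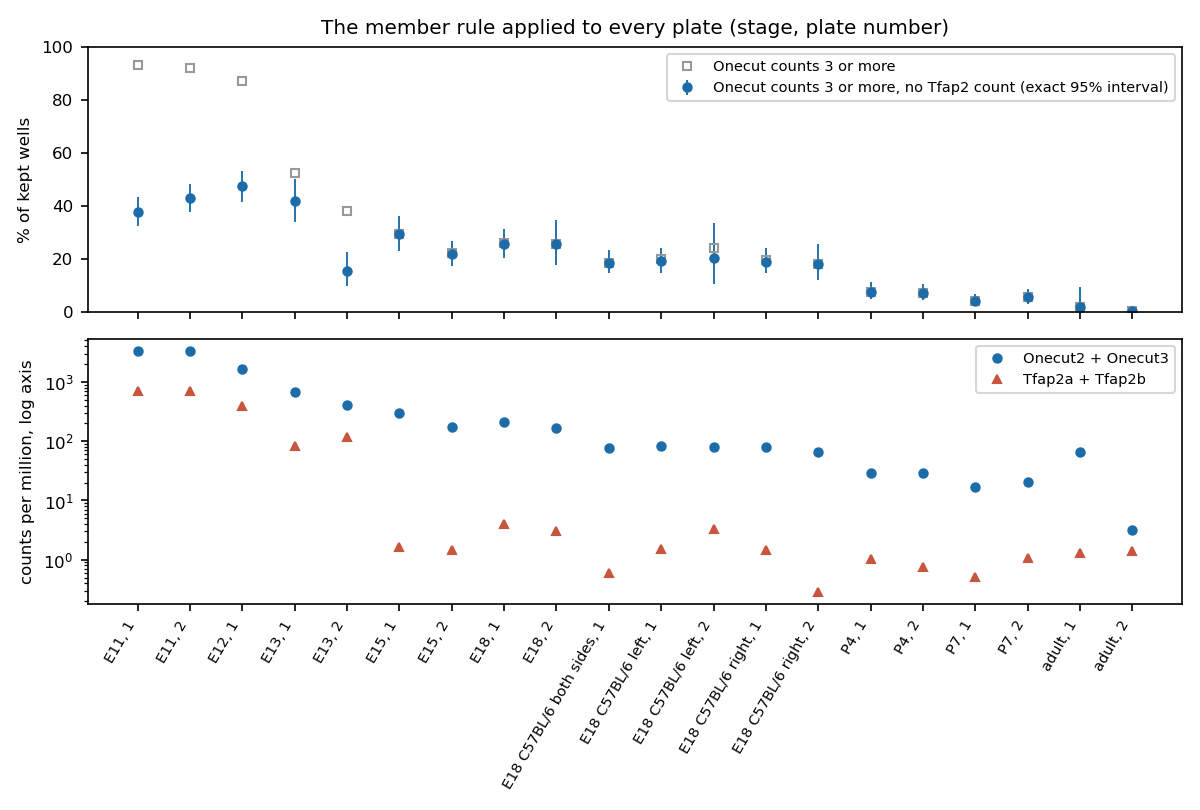
Upper panel, share of kept wells on each plate that met the member rule (blue, with exact 95% intervals) or had at least 3 Onecut counts (open squares). Lower panel, summed Onecut2 and Onecut3 (circles) and Tfap2a and Tfap2b (triangles) over all kept wells, in CPM on a log axis. The Onecut squares start at 93.2% and 92.2% at E11 and lie on or close to the blue points from E15 on, and the Onecut level of adult plate 1 (66 CPM) stands above that of adult plate 2 (3.18 CPM).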

How the data were processed

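Per the labels' protocols, single-cell libraries were made with Cel-seq2 in 384-well plates. The authors deposited estimated counts per gene and well; the values fit molecular identifier counts corrected for collisions among 4096 identifiers. STAR 2.5.3a and mm10 are named per the submitters' processing notes. The members and gene lists were chosen with earlier results of these data known.

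Counts were summed per plate and class and rounded. The 4 rule genes were removed, low counts were filtered with filterByExpr, and edgeR 4.0.16 (R 4.3.3; TMM, quasi-likelihood test, plate as a block, Benjamini-Hochberg threshold 0.05) was fitted, 4 sums with 1 residual degree of freedom. The plate pairs the classes, since both classes come from wells of the same plate. Standard errors (SE) of edgeR changes were derived as the absolute log2 fold change over the square root of the test's F statistic. DESeq2 1.42.0 was an alternative. The scripts were tested on simulated data. Wells were grouped with scanpy 1.11.5 (1500 variable genes, each centred within its plate, 15 components, resolution 0.5). Depth was 5177080 and 4895330 kept counts on the E11 plates.

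Named genes were those called with the same direction on both plates and at least 20 CPM in 1 class. They were the 12 largest rises and 8 largest falls in the first comparison and 5 each way in the others. Called or defining members of the lists were named as well, though not every called member is. Exceptions, chosen after their values were seen, are the label and rule genes and genes that led a group of members by fold. A planned comparison with wells holding Tfap2 counts and no Onecut count had 0 and 2 wells and was replaced by one with Tfap2-high wells. Unspliced counts of 4605 wells were not used. Of 37994 gene IDs 37952 matched GENCODE M21.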

Additional observations from a re-analysis of the deposited data

Results flagged for a closer look

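For these genes the E12 plate had the opposite sign to both E11 plates, as log2 ratios of members to comparison wells with 1 CPM added. With 1 plate at E12 the difference between stages was not tested. Against the other wells, Dlg2 was at -0.074 at E12 and at 1.09 and 0.91 at E11. Gng8 was at -0.00028 at E12 and at 0.63 and 0.89 at E11, and Slit2 at -0.012 and at 0.37 and 0.19. L1cam was at 0.016 at E12 and at -0.33 and -0.37 at E11, and Nefm at 0.22 and at -0.38 and -0.66. Meis2 was at 2.20 at E12 and at -2.48 and -2.42 at E11. Tlx3 was at 0.71 at E12, from 3 counts in the members and 1 in the other wells, and at -2.66 and -3.46 at E11.

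Against Tfap2-high wells, Lhx1 was at -2.26 at E12 and at 5.71 and 1.68 at E11. Tlx3 was at 1.20 at E12 and at -3.62 and -4.33 at E11, Meis2 at 2.70 and at -3.13 and -2.78, and Tfap2d at 0.53 and at -0.21 and -0.60. Lhx1 had no count in the Tfap2-high wells of E11 plate 1. Tlx3 had none in those of E12 and none in the members of E11 plate 2. In these ratios the added 1 CPM sets the value, and they give a sign but no size. Among neurons Onecut1 was at 0.044 at E12 and at -0.45 and -0.13 at E11.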

How the results depend on the processing

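The main counts of calls were 226 (all wells), 424 (neurons) and 1072 (Tfap2-high wells). Each class pair shared a plate, and without the replicate block the counts were 59, 105 and 682; with DESeq2 they were 43, 34 and 157. Thinned wells gave 186 for neurons and 432 against Tfap2-high wells. Without a filter on low counts the first comparison gave 450. Leaving out wells above 3 times the plate median gave 135 and 216 in the first 2 comparisons, and an Onecut threshold of 5 gave 411 and 209. With the E12 plate added, 168 and 629 were called in the neuron and Tfap2-high comparisons. Leaving out an E11 plate, with the E12 plate in its place, gave 88 to 228, 17 to 226 and 283 to 411. Without the Tfap2 condition the first comparison gave 2014 calls. The member shares then became 93.2%, 92.2% and 87.3% on the E11 plates and at E12; the rule on thinned wells gave 54.1%, 57.2% and 58.2%, and an Onecut threshold of 1 gave 53.6% at E12. Resolution 1 gave 7 groups of members.

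Of 634 gene results under alternatives in the first comparison 438 kept direction and call, 181 lost the call and 15 changed sign. The same numbers were 120, 37 and 4 of 161 for neurons, and 336, 27 and 2 of 365 against Tfap2-high wells. Without the Tfap2 condition, which changes the classes compared, log2 changes became 8.20 for Arpp21, 0.44 for Gm30382, 0.72 for Lhx2, 0.46 for Shox2, 7.48 for Tlx3, 1.24 for Slc17a6, 3.38 for Robo2, 2.20 for Slit1, 1.70 for Plxna4, 0.95 for Cntn2, 2.74 for L1cam, 1.13 for Nrcam, 2.72 for Nefm and 0.37 for Cdkn1c. Among neurons they became -0.19 for Nr4a2, 8.14 for Arpp21, 0.048 for Hs3st3b1 and 1.78 for Onecut1. Hes5 was at 0.34 with an Onecut threshold of 1. Against Tfap2-high wells Lhx1 was at -0.0071 without plate 1 and Tfap2d at 0.028 without plate 2. For the other changes the cause was not tested. The planned comparison with wells of Tfap2 counts and no Onecut count was not run, since that class held 0 and 2 wells.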
